A study of Mus musculus with 6 samples.

Results

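The genes described here are 39 genes of DNA replication and S phase, measured in intestinal crypts of mice that carry an activated YAP transgene and of control mice. They were chosen by name: a gene belongs if its symbol stands in the list and a probe set of the array is annotated with that symbol alone. All 39 were measured, out of 19938 genes named on the array. Where a gene had several such probe sets, the one with the highest mean over the 6 arrays stood for it.

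The samples were total RNA of freshly isolated, uncultured crypts, 1 Affymetrix array per mouse, from 3 YAP Tg mice and 3 control mice. The transgene, named in the title of the series, is YAP-S127A, a YAP protein without the serine through which Hippo kinases restrain it, and it acts through Villin-rtTA, a doxycycline-dependent activator driven by a promoter of the gut epithelium. Mice received doxycycline for 2 days; the series text names neither the alleles of the controls nor whether they received the drug, so effects of the drug or of rtTA alone cannot be told apart from those of the transgene. The labels state no strain, age, sex or stretch of intestine. Crypts were released with EDTA, so the RNA comes from all cells that came off with them, and in such bulk samples fewer cells of a type and less RNA per cell cannot be told apart.

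Cells copy their genome once per cycle. Origins are licensed in G1, when the origin recognition complex, Cdc6 and Cdt1 load the MCM ring onto DNA; at S phase entry the ring is joined by Cdc45 and the GINS complex into the active CMG helicase, and polymerases, the PCNA clamp and enzymes of nucleotide supply follow. Many of these genes are switched on together by E2F factors at the G1/S boundary. In the gut they are used as markers of the fast dividing progenitors of the crypt.

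The YAP Tg arrays differed among themselves more than the control arrays did. Lower and upper quartiles of log2 signal over all 19938 genes were 5.52 and 8.45 in YAP Tg mouse 1, 5.43 and 8.66 in mouse 2 and 5.57 and 8.49 in mouse 3, against lower quartiles of 5.41 to 5.47 and upper quartiles of 8.6 to 8.69 in control arrays. Pearson's r across genes was 0.978 to 0.989 between YAP Tg arrays and 0.996 to 0.997 between control arrays, where genes are not independent replicates. The epithelial marker list (10 genes such as Epcam, Cdh1 and Vil1) had a median log2 signal of 12.15 to 12.19 in YAP Tg and 11.53 to 11.67 in control arrays, so defining markers of the labelled tissue were present. Gene by gene, their median difference from the control mean was 0.29, 0.24 and 0.22 in YAP Tg mice 1, 2 and 3. Directions were mixed: limma (adjusted p below 0.05) called 4 of the 10 higher and 1 lower, against 7.5% and 6.7% of all genes. Yap1 itself averaged 9.17 ± 0.16 in YAP Tg and 9.41 ± 0.09 in control crypts (SD, n = 3 each; limma's adjusted p = 0.184), and no source used here says whether its probe set covers the transgene. The YAP target Ccn1 averaged 10.67 ± 0.11 in YAP Tg and 6.18 ± 0.03 in control crypts (limma's adjusted p = 2.1e-05), and all 3 transgenic mice showed it.

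Replication genes were at less than their control level in YAP Tg mice 1 and 3 and at about their control level in YAP Tg mouse 2. The median log2 signal of the 39 genes was 7.82, 8.73 and 7.80 in YAP Tg mice 1, 2 and 3, against 8.63, 8.76 and 8.55 in control mice 1, 2 and 3. Set against the mean of the 3 control arrays gene by gene, the median difference was -1.03, -0.05 and -0.92 on the log2 scale in YAP Tg mice 1, 2 and 3, against -0.004, 0.054 and -0.05 in control mice 1, 2 and 3. The same medians over all genes tested were 0.02, -0.004 and 0.05 in the YAP Tg mice. YAP Tg mice 1 and 3 thus stood apart from the control mice and from YAP Tg mouse 2.

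In YAP Tg mouse 1, 37 of 39 genes lay below all 3 control values, and in mouse 3 this held for 38 of 39; the background over all genes was 35.5% in mouse 1 and 31.9% in mouse 3. In YAP Tg mouse 2 it held for 15 of 39, against a background of 33.7%, and 8 of 39 lay above all 3 control values, against 28.3%. Above all controls lay 1 gene each in mice 1 and 3, Rrm2, against backgrounds of 40.7% in mouse 1 and 45.3% in mouse 3. Of the 39 members, 37 were among the 9969 genes above the median signal, where shares differed from those over all genes. Of these 9969, 5387, 3853 and 5092 lay below all 3 control values in YAP Tg mice 1, 2 and 3, and 3503, 3716 and 3501 above them. In mouse 1, 20 of 39 members were at least 2-fold below the control mean, in mouse 3 there were 16 and in mouse 2 none (0 of 39). This share was not counted over all genes. Genes above the median signal had lower quartiles of -0.66, -0.20 and -0.50 against the control mean in YAP Tg mice 1, 2 and 3. Mouse 2 was the highest YAP Tg mouse for 38 of the 39 genes, against 32.8% of all genes and 48.9% of those above the median signal. Between mice 1 and 3 the order was less even, with mouse 1 lowest for 28 genes and mouse 3 lowest for 11.

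**Figure D1:**
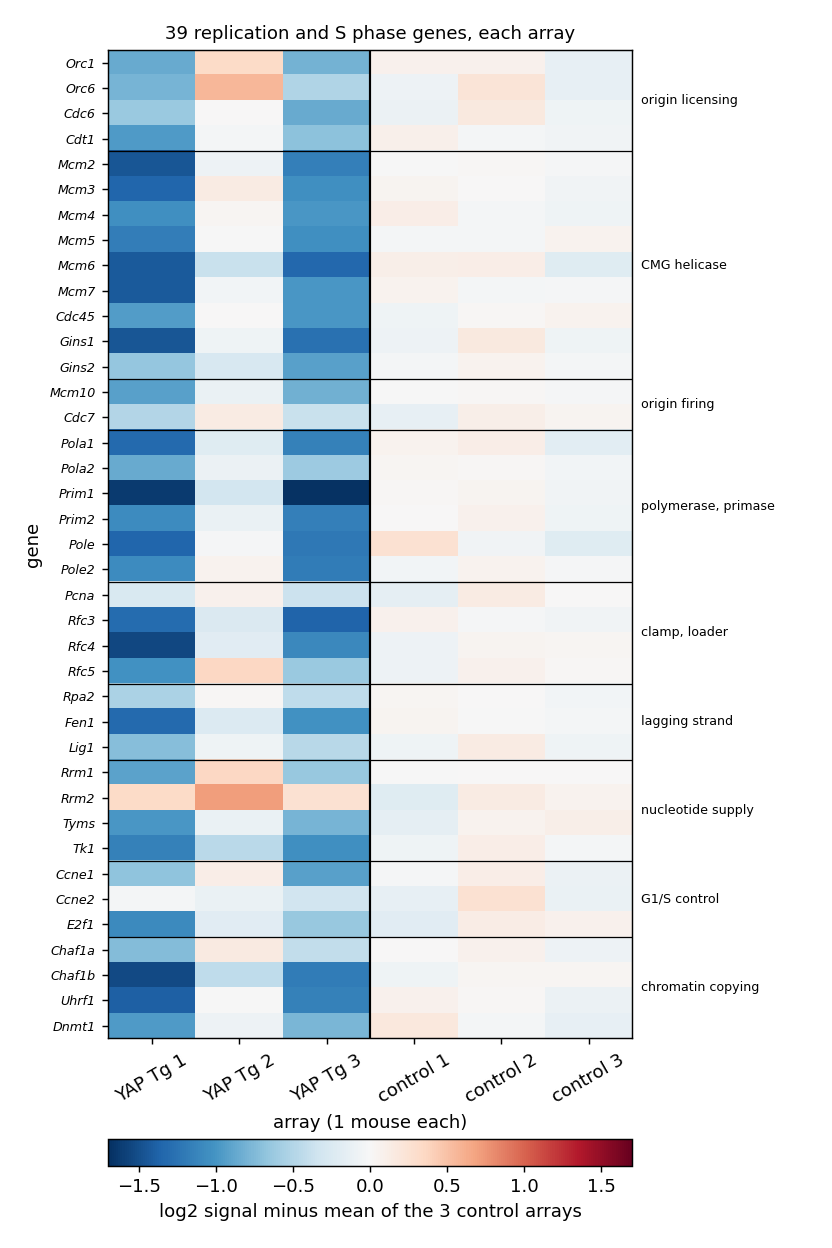
Log2 signal of each of the 39 genes in each array minus the mean of the 3 control arrays, as colour, with genes in rows grouped by role and the 3 YAP Tg arrays left of the 3 control arrays. The columns of YAP Tg mice 1 and 3 are blue in nearly every row (medians -1.03 and -0.92), that of mouse 2 is near white (median -0.05), and Rrm2 is the row that is red in all 3 YAP Tg arrays.

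With all 6 arrays, limma (adjusted p below 0.05) called 1 of the 39 genes lower, Tk1, and none higher. The background was 6.7% of all genes called lower and 7.5% called higher, so the members' share of calls lay below that of all genes. Among the 9969 genes above the median signal, 1162 were called lower and 1270 higher. At an unadjusted p below 0.05, limma gave 22 members lower and 1 higher, against 3224 lower and 2730 higher of all 19938 genes. Restricted to the 9969 genes above the median signal, it gave 2812 lower and 1991 higher. The log2 change, YAP Tg minus control, was negative for 38 of 39 genes (43.6% of all genes) and positive for 1 (56.4%), with a median of -0.64 and a range of -1.21 to 0.43, while the median over all genes was 0.03. All 3 YAP Tg values lay below all 3 control values for 15 members, against a background of 17%, and above them for 1 member, against 16.5%. For genes above the median signal these counts were 2876 and 2188 of 9969. The median SD among YAP Tg mice was 0.56 for members and 0.16 for all genes, against 0.08 in control mice for members and for all genes alike.

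The count of calls turned on 1 animal. Without YAP Tg mouse 2, limma gave 37 members lower and 0 higher at an unadjusted p below 0.05. At an adjusted p below 0.05 it called 36 of 39 members lower and none higher, against a background of 19.5% lower and 14.1% higher. Of the 9969 genes above the median signal, 3517 were called lower and 1915 higher in this fit. These 36 had log2 changes between -1.66 and -0.44, with adjusted p from limma between 0.0011 and 0.0223, and the median of all 39 was -0.89. This mouse was singled out after its values were seen, and without any 1 of the other 5 arrays limma called 0 members (4 to 8 lower at an unadjusted p below 0.05). Unadjusted counts over all genes were not made for the fits with 1 array left out. The background in those 5 fits was 4.46% lower and 5.72% higher without YAP Tg mouse 1, 4.07% and 5.36% without YAP Tg mouse 3, 1.85% and 3.38% without control mouse 1, 2.11% and 3.7% without control mouse 2, and 2.32% and 3.36% without control mouse 3. The 3 genes not called without mouse 2 were Pcna, Ccne2 and Rrm2.

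**Figure D2:**
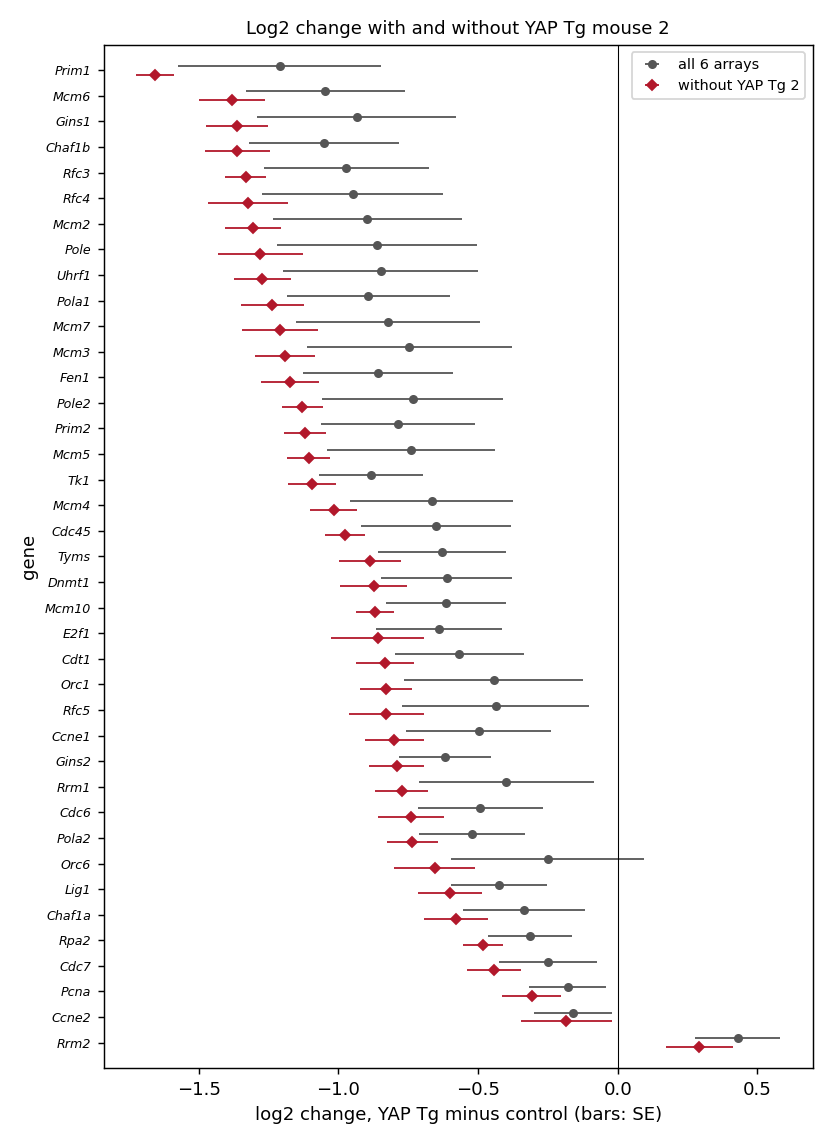
Log2 change (YAP Tg minus control, with the standard error as a bar) of each of the 39 genes from all 6 arrays in grey circles and without YAP Tg mouse 2 in red diamonds. Without that mouse the estimates run from -1.66 for Prim1 to 0.29 for Rrm2 and most standard errors are smaller, though not that of Ccne2.

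The core of the replicative helicase is the ring of Mcm2 to Mcm7, with Cdc45 and the GINS subunits Gins1 and Gins2 as its activating partners. All 9 of these genes were below every control value in YAP Tg mice 1 and 3, and the group had medians of -1.34, -0.05 and -1.04 against the control mean in mice 1, 2 and 3. Mcm7 had log2 signals of 8.84, 10.22 and 9.28 in YAP Tg mice 1, 2 and 3, against 10.33, 10.23 and 10.25 in control mice. Mouse 2 lay just under the lowest control, and the other 2 lay about 1 log2 unit or more under it. The difference in Mcm7 was -0.82 (SE 0.33, limma's adjusted p = 0.159) with all arrays and -1.21 (SE 0.14, limma's adjusted p = 0.00309) without mouse 2.

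Mcm5 had 9.05, 10.22 and 9.19 in YAP Tg mice 1, 2 and 3, against 10.20, 10.20 and 10.29 in control mice, so mouse 2 fell inside the control range. Its difference was -0.74 (SE 0.30, limma's adjusted p = 0.164). Of the other 7 genes, changes ran from -1.05 in Mcm6 to -0.62 in Gins2, and these had the lowest adjusted p of the group (0.0619 and 0.0584). Mcm6 and Gins2, named after their values were seen, were also among the few with all 3 YAP Tg values below the controls, together with Mcm2 and Mcm7. Without mouse 2 all 9 were called lower, from -1.38 in Mcm6 to -0.79 in Gins2.

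Promoter sequence was not used to choose the genes. The RefSeq promoter table (GRCm38.p6, 250 bases before to 50 after a gene's start) held 41 promoters of 33 of the 39 genes. They were searched on both strands for 4 spellings of the E2F motif, TTTCCCGC, TTTGGCGC, TTTCGCGC and TTTGCCGC, which may overlap each other, and for the CCAAT box of the factor NF-Y. At least 1 E2F match stood in 13 of the 41 promoters, 31.7% (95% exact binomial interval 18.1 to 48.1%, which treats promoters of 1 gene as separate), against 2.26% of all 32851 promoters of the table and 2.99% of the 19177 promoters of genes tested here. Among the ring subunits Mcm3, Mcm5, Mcm6 and Mcm7 had a match, Mcm2 had none, Mcm4 was not listed, and a second listed promoter of Mcm7 had none. CCAAT stood in 53.7% of members' promoters (95% exact binomial interval 37.4 to 69.3%) and in 37.4% of all promoters, at the edge of that interval. Members' promoters had a median GC content of 58.3%, those of genes tested 57.3% and all promoters 52.7%.

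The 5 promoters with 2 or more matches among helicase and clamp loader genes are printed below, with each E2F match in capitals, followed by that of Rrm2, the gene that went the other way and had no match in its window. All are from RefSeq on GRCm38.p6, read 5′ to 3′ on the gene's strand.
Mcm3, chr1:20820263-20820562, minus strand: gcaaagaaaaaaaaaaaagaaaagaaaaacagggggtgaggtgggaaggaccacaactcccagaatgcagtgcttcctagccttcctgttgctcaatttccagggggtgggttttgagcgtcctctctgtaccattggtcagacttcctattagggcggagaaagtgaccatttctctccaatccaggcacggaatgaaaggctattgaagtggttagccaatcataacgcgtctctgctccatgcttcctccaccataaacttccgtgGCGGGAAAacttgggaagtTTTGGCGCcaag
Mcm5, chr8:75109259-75109558, plus strand: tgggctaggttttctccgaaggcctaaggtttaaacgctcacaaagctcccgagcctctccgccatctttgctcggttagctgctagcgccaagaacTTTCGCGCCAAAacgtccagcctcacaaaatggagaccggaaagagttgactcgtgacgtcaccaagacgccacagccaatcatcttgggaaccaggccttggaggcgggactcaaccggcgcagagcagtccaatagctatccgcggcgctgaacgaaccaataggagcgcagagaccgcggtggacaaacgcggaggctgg
Mcm6, chr1:128359656-128359955, minus strand: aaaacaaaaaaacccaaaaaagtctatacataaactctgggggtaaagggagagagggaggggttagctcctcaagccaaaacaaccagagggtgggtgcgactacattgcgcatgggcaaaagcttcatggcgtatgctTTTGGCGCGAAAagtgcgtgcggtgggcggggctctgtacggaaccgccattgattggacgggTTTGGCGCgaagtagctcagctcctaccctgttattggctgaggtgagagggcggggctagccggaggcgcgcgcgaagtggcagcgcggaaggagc
Mcm7, chr5:138171834-138172133, minus strand: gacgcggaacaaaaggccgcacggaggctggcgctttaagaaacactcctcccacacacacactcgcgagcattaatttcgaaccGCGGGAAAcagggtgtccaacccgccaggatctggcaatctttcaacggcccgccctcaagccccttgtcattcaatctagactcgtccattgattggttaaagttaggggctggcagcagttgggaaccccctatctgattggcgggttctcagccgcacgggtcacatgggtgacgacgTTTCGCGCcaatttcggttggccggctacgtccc
Rfc3, chr5:151651159-151651458, minus strand: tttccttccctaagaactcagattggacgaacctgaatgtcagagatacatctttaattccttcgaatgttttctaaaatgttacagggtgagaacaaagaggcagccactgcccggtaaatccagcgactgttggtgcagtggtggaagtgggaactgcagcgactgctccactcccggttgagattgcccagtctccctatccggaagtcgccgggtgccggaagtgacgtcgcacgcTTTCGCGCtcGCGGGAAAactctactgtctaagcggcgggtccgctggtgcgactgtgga
Rrm2, chr12:24708004-24708303, plus strand: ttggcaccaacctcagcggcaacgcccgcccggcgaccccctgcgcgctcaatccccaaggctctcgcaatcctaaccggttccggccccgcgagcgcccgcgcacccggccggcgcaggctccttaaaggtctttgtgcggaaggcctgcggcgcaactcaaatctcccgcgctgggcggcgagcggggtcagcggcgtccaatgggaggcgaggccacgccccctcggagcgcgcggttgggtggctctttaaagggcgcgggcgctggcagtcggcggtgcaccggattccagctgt

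In Mcm5 and in the upstream pair of Mcm6, the capitals are 2 overlapping matches on opposite strands, at positions -153 to -142 in Mcm5 and -110 to -99 in Mcm6, counted from 0 at the start. Mcm3 carries its matches after the start, from position 19 on, and Rfc3 carries 1 on each side of it. The 13 genes with a match had median differences of -1.18, -0.03 and -1.04 in YAP Tg mice 1, 2 and 3, and the 20 genes in the table without one had -0.94, -0.04 and -0.71. Among 519 tested genes outside the replication lists whose promoter held a match, the medians were -0.17, -0.02 and -0.11, against 0.02, -0.01 and 0.05 among 15021 genes without. These groups were not matched for signal, and all genes above the median signal had similar medians of -0.16, -0.01 and -0.10 in YAP Tg mice 1, 2 and 3. Mitosis genes and regulators of G1 and S phase were not taken out of either group. These are descriptions: a match is not a bound site, and a missing match says only that these letters are not in the window.

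Licensing and firing genes followed the helicase with smaller differences. The licensing genes are Orc1 and Orc6, subunits of the origin recognition complex, and the MCM loaders Cdc6 and Cdt1; their medians were -0.83, 0.17 and -0.75 in YAP Tg mice 1, 2 and 3. Cdt1 had 8.19, 9.12 and 8.45 in these mice, against 9.24, 9.12 and 9.10 in control mice, with a difference of -0.57 (SE 0.23, limma's adjusted p = 0.165). Orc6 had 7.82, 9.17 and 8.10, against 8.53, 8.84 and 8.48 in control mice. For Orc6, and also for Orc1 (named after its value was seen), mouse 2 stood above every control while mice 1 and 3 stood below them all. The change was -0.25 in Orc6 (SE 0.35, limma's adjusted p = 0.664) and -0.44 in Orc1 (SE 0.32, limma's adjusted p = 0.399).

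The firing factors are Mcm10, which helps to start the assembled helicase, and Cdc7, the kinase that phosphorylates the MCM ring. Mcm10 had 7.36, 8.18 and 7.48 in YAP Tg mice 1, 2 and 3, against 8.29, 8.30 and 8.27 in control mice, and its change was -0.61 (SE 0.21, limma's adjusted p = 0.117). All 3 YAP Tg values were below the controls, mouse 2 by far the least. Cdc7 was a weak signal with a small difference, 5.78, 6.41 and 5.90 in YAP Tg mice against 6.14, 6.37 and 6.32 in control mice (change -0.25, SE 0.18, limma's adjusted p = 0.390).

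DNA polymerase and primase subunits had the most negative median change of the 9 roles with all arrays, at -0.82. The group holds Pola1 and Pola2 of polymerase alpha, its primase partners Prim1 and Prim2, which lay the RNA primers, and Pole and Pole2 of the leading strand polymerase epsilon. Medians were -1.20, -0.11 and -1.18 in YAP Tg mice 1, 2 and 3. Prim1, named after its values were seen, had the most negative change of all 39 genes with all arrays (-1.21, SE 0.36, limma's adjusted p = 0.0805) and without mouse 2 (-1.66, SE 0.07, limma's adjusted p = 0.0011, a 3.15-fold lower signal).

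Prim2 had 7.34, 8.29 and 7.25 in YAP Tg mice 1, 2 and 3, against 8.41, 8.48 and 8.34 in control mice, with a difference of -0.79 (SE 0.28, limma's adjusted p = 0.121). Here the lowest control was above all YAP Tg mice, though by only a little for mouse 2. Pola2 differed less, with 8.13, 8.89 and 8.36 in YAP Tg mice against 8.93 to 9.01 in control mice (change -0.52, SE 0.19, limma's adjusted p = 0.131). All 6 genes of the group were called lower without mouse 2, and 4 of the 6 had all YAP Tg values below all control values.

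The sliding clamp and its loader form the next group, of which 3 of 4 were called lower without mouse 2. Pcna encodes the clamp that holds polymerases on DNA, and Rfc3, Rfc4 and Rfc5 are subunits of the complex that opens it. Rfc4 had 9.10, 10.45 and 9.55 in YAP Tg mice 1, 2 and 3, against 10.57, 10.70 and 10.68 in control mice (change -0.95, SE 0.32, limma's adjusted p = 0.113). Pcna had 11.37, 11.70 and 11.26 in YAP Tg mice, against 11.47, 11.76 and 11.63 in control mice. The Pcna difference of -0.18 (SE 0.14, 95% interval -0.52 to 0.16, limma's adjusted p = 0.430) was the smallest in this group; mouse 2 lay within the control range and mice 1 and 3 below it. Rfc5, named after its values were seen, had 9.28, 10.66 and 9.69 in YAP Tg mice 1, 2 and 3, against 10.22, 10.38 and 10.33 in control mice, with mouse 2 above all controls. Its log2 difference was -0.44 (SE 0.33, adjusted p from limma 0.427). Whether the clamp and its loader differed from each other was not tested.

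Pcna has a second probe set with nearly the same values, 11.35, 11.68 and 11.26 in YAP Tg mice and 11.46, 11.74 and 11.62 in control mice. Of the 20 probe sets numbered next to it, 19 are of genes on chromosome 19, whereas Pcna lies on chromosome 2. The probe set used for Pcna has 19 of its 20 neighbours on chromosome 2. Which copy of the sequence each probe set reads cannot be told from these files, so the Pcna value is uncertain. It was the strongest signal of the 39 genes, with a mean of 11.53.

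The next 3 genes act at the lagging strand or on exposed single strands. Fen1, the nuclease that removes primer flaps, had 6.93, 8.02 and 7.22 in YAP Tg mice 1, 2 and 3, against 8.30, 8.24 and 8.21 in control mice (change -0.86, SE 0.27, limma's adjusted p = 0.0913). Lig1, the ligase that seals Okazaki fragments, had 8.24, 8.89 and 8.49, against 8.90, 9.11 and 8.90 in control mice (change -0.43, SE 0.17, limma's adjusted p = 0.161). Both had all YAP Tg values below the controls, Lig1 narrowly in mouse 2. Rpa2, of the single strand binding complex, had 8.14, 8.71 and 8.26 in YAP Tg mice, against 8.72, 8.69 and 8.64 in control mice, so mouse 2 was inside the control range (change -0.31, SE 0.15, limma's adjusted p = 0.222).

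Nucleotide supply held both the called gene and the exception. Tk1, the thymidine kinase of the salvage pathway, had 8.05, 8.73 and 8.15 in YAP Tg mice 1, 2 and 3, against 9.12, 9.31 and 9.16 in control mice. It fell by 0.88 on the log2 scale (SE 0.19, limma's adjusted p = 0.0282), and mouse 2 took part: its difference from the control mean was -0.46, the most negative of any member in that mouse. The call was lost when any 1 array other than YAP Tg mouse 2 was left out, with limma's adjusted p of 0.0734 to 0.119.

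None of the 20 probe sets numbered next to the one used for Tk1 belongs to chromosome 11, where Tk1 lies, and 15 are of chromosome 8 genes. The second Tk1 probe set has all 20 neighbours on chromosome 11. It read 7.71, 8.39 and 7.95 in YAP Tg mice, against 9.01, 9.04 and 9.01 in control mice, a fall by 1.00 on the log2 scale (SE 0.17, limma's adjusted p = 0.0144), chosen after the data were seen. Both probe sets gave the same direction and the same call with all arrays, and the second had limma's adjusted p of 0.00137 to 0.0715 with 1 array left out, past 0.05 without YAP Tg mouse 3 or any 1 control mouse.

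Rrm1 and Rrm2 encode the large and small subunits of ribonucleotide reductase, which makes deoxyribonucleotides. Their changes had opposite signs, though in YAP Tg mouse 2 both lay above all controls. Neither change was called, and the difference between them was not tested. Rrm1 had 9.62, 10.88 and 9.89 in YAP Tg mice 1, 2 and 3, against 10.53 in each of the 3 control mice (change -0.40, SE 0.31, limma's adjusted p = 0.438). Mouse 2 was above and the other 2 were below all controls. Rrm2 had 10.06, 10.45 and 10.01 in YAP Tg mice, against 9.53, 9.89 and 9.80 in control mice. It was the 1 member with all 3 YAP Tg values above all 3 control values, with a difference of 0.43 (SE 0.15, 95% interval 0.06 to 0.80), and it did not pass the test across all genes (limma's adjusted p = 0.121).

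Rrm2 shared one trait with all other members but Ccne2: mouse 2 was again the highest of the YAP Tg mice. Tyms, the thymidylate synthase and the fourth gene of this group, was among the 36 called without mouse 2, at -0.89 there and -0.63 with all arrays.

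**Figure D3:**
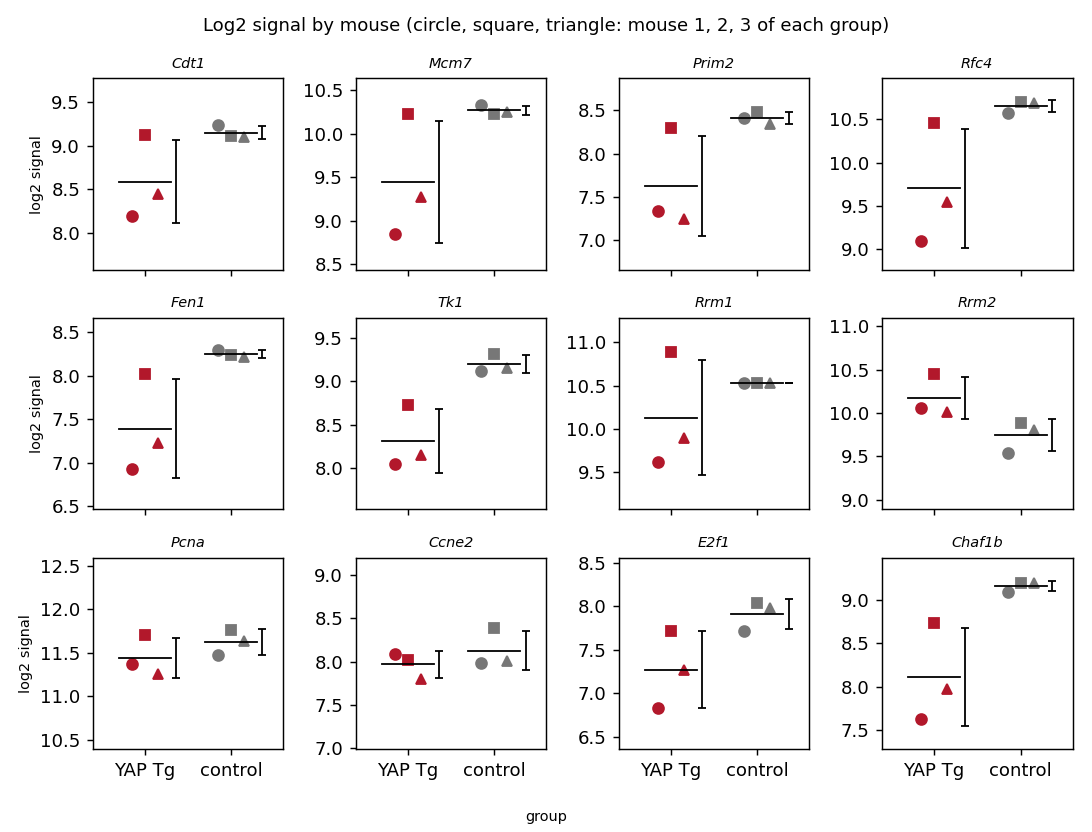
Log2 signal of 12 of the genes in each mouse, with YAP Tg mice in red left of control mice in grey; circle, square and triangle are mouse 1, 2 and 3 of a group, horizontal lines are group means and bars are SD (n = 3), and every panel spans the same 2.2 log2 units. The red square of mouse 2 stands near the grey points for most genes. All red points lie below the grey ones for Mcm7 (narrowly), Prim2, Rfc4, Fen1, Tk1 and Chaf1b, and all lie above them for Rrm2.

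Of the genes that control S phase entry, 2 of 3 were called without mouse 2. Ccne1 and Ccne2 encode E-type cyclins, the partners of Cdk2 at the G1/S boundary, and E2f1 encodes a transcription factor of this gene set. Ccne1 had 7.97, 8.75 and 7.73 in YAP Tg mice 1, 2 and 3, against 8.63, 8.76 and 8.55 in control mice (change -0.50, SE 0.26, limma's adjusted p = 0.252). Ccne2 had 8.09, 8.02 and 7.80, against 7.98, 8.39 and 8.01 in control mice. It is the 1 member for which mouse 2 was not the highest of the YAP Tg mice, the groups overlapped, and its difference of -0.16 (SE 0.14, 95% interval -0.50 to 0.18, limma's adjusted p = 0.490) was within the spread of the control mice.

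E2f1 had 6.83, 7.71 and 7.27 in YAP Tg mice 1, 2 and 3, against 7.71, 8.04 and 7.98 in control mice, so mouse 2 met the lowest control (change -0.64, SE 0.23, limma's adjusted p = 0.123).

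The last group acts on chromatin behind the fork. Chaf1a and Chaf1b are subunits of the assembly factor that loads histones onto new DNA, Dnmt1 copies DNA methylation and Uhrf1 brings it to half-methylated sites. Chaf1b had 7.63, 8.73 and 7.97 in YAP Tg mice 1, 2 and 3, against 9.09, 9.20 and 9.19 in control mice; its change of -1.05 (SE 0.27) stood just short of the threshold (limma's adjusted p = 0.0507). Mouse 2 was below the lowest control too, at -0.43 from the control mean. Dnmt1 had 8.02, 8.90 and 8.20 in YAP Tg mice, against 9.17, 8.95 and 8.84 in control mice (change -0.61, SE 0.23, limma's adjusted p = 0.145), and all 4 genes of the group were called lower without mouse 2.

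Replication genes outside the 39 also split by mouse. Of 54 further genes of the fork, the checkpoint and nucleotide supply listed for comparison, 51 were measured, and limma called 2 lower and 1 higher with all arrays and 41 lower and 1 higher without YAP Tg mouse 2 (backgrounds as above). Their medians were -0.92, -0.06 and -0.68 in YAP Tg mice 1, 2 and 3. Shmt1, a folate enzyme that feeds thymidylate synthesis, fell by 1.41 (limma's adjusted p = 0.0409), and Dck, the deoxycytidine kinase, fell by 1.07 (0.0397). Exo1, a nuclease of repair and replication, had a change of -1.06 and limma's adjusted p of 0.054. Pold4, a small accessory subunit of polymerase delta, rose by 1.04 (limma's adjusted p = 0.0256), with 9.45, 8.57 and 8.94 in YAP Tg mice 1, 2 and 3 against 7.93 to 7.97 in control mice. With 1 array left out, limma's adjusted p reached 0.145 for Shmt1, 0.14 for Dck and 0.107 for Pold4.

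Of 29 measured regulators of G1 and S phase, 3 were called lower and 1 higher with all arrays, against 6.7% lower and 7.5% higher over all genes. Without YAP Tg mouse 2, 17 were called lower and 3 higher, against 19.5% and 14.1%. Their medians were -0.65, 0.02 and -0.47 in YAP Tg mice 1, 2 and 3. Tfdp2, a DNA-binding partner of E2F proteins, fell by 0.77 (limma's adjusted p = 0.00749), and the Cdk4 and Cdk6 inhibitor Cdkn2c fell by 0.85 (0.00969). Mycn, a MYC family factor, fell by 0.34 (0.0269), and the Cdk inhibitor Cdkn1c rose by 0.58 (0.0308). For each of these 4, all 3 YAP Tg values lay beyond all 3 control values. They were picked by the smallest p in the same arrays, so this adds no separate support. Of the 29 genes, 9 lay wholly below and 5 wholly above the controls, against 17% and 16.5% of all genes. For Tfdp2 the YAP Tg values were 8.58, 8.66 and 8.90, against 9.38 to 9.59 in control mice. With 1 array left out, the adjusted p from limma reached 0.0462 for Tfdp2, 0.0536 for Cdkn2c, 0.119 for Mycn and 0.12 for Cdkn1c.

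The 19 measured mitosis genes had medians of -1.39, 0.14 and -0.91 in YAP Tg mice 1, 2 and 3, and limma called 0 with all arrays (1 lower at an unadjusted p below 0.05) and 18 lower without mouse 2. The proliferation marker Mki67 had 8.72, 10.17 and 9.05 in YAP Tg mice, against 10.38, 10.04 and 10.04 in control mice. In YAP Tg mouse 2, 12 of the 19 mitosis genes lay above all 3 control values and 1 below them, against 28.3% and 33.7% of all genes. The mitosis genes thus split by mouse as well, but in mouse 2 most of them stood above control.

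The stem cell and YAP target lists differed from control in all 3 YAP Tg mice. The 9 measured Lgr5 stem cell markers had medians of -2.05, -1.08 and -1.44 in YAP Tg mice 1, 2 and 3, and 8 of 9 were called lower with all arrays; Olfm4, a secreted glycoprotein of these cells, had 8.52, 10.23 and 10.57, against 12.87 to 13.02 in control mice. The 8 YAP targets had medians of 1.94, 1.65 and 1.59, and 6 of 8 were called higher. Mouse 2 thus showed both of these differences while its replication genes were near control level. The difference between the lists was not tested.

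**Figure D4:**
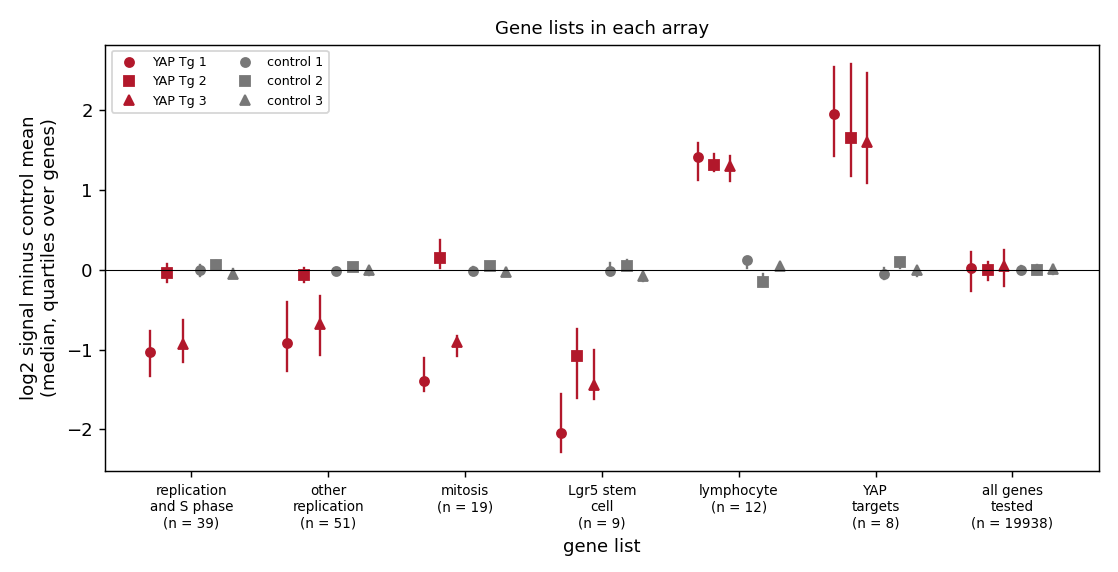
Median over genes of log2 signal minus the control mean, with quartiles as lines, for 7 gene lists in each of the 6 arrays (YAP Tg in red left of control in grey; circle, square and triangle are mouse 1, 2 and 3 of a group). The YAP Tg mouse 2 square is near 0 in the replication lists and at 0.14 in the mitosis list, while mice 1 and 3 lie between -0.68 and -1.39. In the stem cell, lymphocyte and YAP target lists all 3 YAP Tg mice lie on one side.

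Markers of other cells and the spread of the arrays were measured beside this. Lymphocyte markers were higher in all 3 YAP Tg mice, with 11 of 12 called, medians of 1.41, 1.31 and 1.29 over the control mean, and a summed signal of 15.08 to 15.29 in YAP Tg against 13.74 to 14.02 in control arrays on the log2 scale, so they did not follow the split by mouse. The 7 myeloid markers had medians of 0.83, 0.12 and 0.30 in YAP Tg mice 1, 2 and 3 (3 called higher and 1 lower), and the 11 villus enterocyte markers had -0.18, -0.31 and -0.12 (1 higher and 3 lower). The 8 stroma markers had medians of 0.27, 0.01 and 0.19 in YAP Tg mice 1, 2 and 3, with 8, 1 and 6 of 8 above all controls and 1 called higher, so by this median they too stood nearer to control in mouse 2, although their summed log2 signal was 10.98, 11.10 and 10.69 in these mice, against 10.26 to 10.35 in control mice. The medians were also nearer to control in mouse 2 for the 5 B and plasma cell markers, at 0.29, -0.04 and 0.25 with none called (1 lower and 1 higher at an unadjusted p below 0.05). The 6 tuft cell markers had 0.06, -0.34 and 0.52 and the 8 enteroendocrine markers 0.07, -0.31 and 0.09, lowest in mouse 2 in both lists. The 7 goblet markers had -0.92, -1.16 and -0.19, the 6 Paneth markers -0.64, -0.39 and -0.44, and the 5 endothelial markers 0.25, 0.15 and 0.08. Genes above the median signal as a whole stood at -0.16, -0.01 and -0.10 in the 3 mice, and the part of these shifts and of the marker differences in the replication result was not tested. After quantile normalization, which gives all arrays the same distribution, the medians of the 39 genes were -0.91, -0.05 and -0.86.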

How the data were processed

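RNA of intestinal crypts of 3 YAP Tg and 3 control mice was hybridised to Affymetrix arrays. The authors deposited log2 signals of 35556 probe sets (range 1.99 to 14.4), which the submitters' processing notes tie to Affymetrix Expression Console (version 1.1); no source used here states the background correction or normalization, and the log2 scale was read from the values. A normalization to a common level hides any change shared by all genes.

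Of the probe sets, 21789 had 1 gene symbol in the platform annotation, 1621 had several and 12146 were not listed; 21698 of the first matched RefSeq by Entrez identifier. Per gene the probe set with the highest mean was kept, giving 19938 genes. Groups came from the sample titles, each taken as 1 mouse. Differences (YAP Tg minus control) were tested with limma 3.58.1 in R 4.3.3 (lmFit, eBayes; two-sided), with Benjamini-Hochberg adjustment across the 19938 genes and a threshold of 0.05. Precision is limited by having 3 arrays in each group.

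The members, roles and other lists were chosen with earlier results of these data known. Values in every mouse are given for members past the test and for the 2 strongest signals per role (all in roles of 3 or fewer), and other lists give up to 4 members with the smallest p. The labels state no pairing of the mice, and the main fit used none. Deviations of same-numbered mice correlated at -0.131, 0.0124 and 0.0983, which with 3 mice per group cannot show whether mice were paired. Alternatives were leaving out each mouse, a replicate block, 2 scalings, a signal filter, another prior, array weights, averaged probe sets and a threshold of 0.1.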

Additional observations from a re-analysis of the deposited data

How the results depend on the processing

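The median log2 change of the 39 genes kept its sign in all settings, between -0.887 and -0.459 with 1 array left out and between -0.772 and -0.58 otherwise. The count called lower by limma, 1 with all arrays, depended on the setting: it was 0 to 36 with 1 array left out, 31 with array weights (which gave YAP Tg mouse 2 the lowest weight, 0.249), 7 at a threshold of 0.1, 6 among genes above the median signal, 4 after quantile normalization, 2 after median centring and 2 with a trended, robust prior. None was called higher in any setting (0 or 1 at an unadjusted p below 0.05). For the other replication genes, 2 lower became 0 to 41 with 1 array left out, 37 with array weights, 13 at the threshold of 0.1, 8 above the median signal, 4 after quantile normalization and 0 with the replicate block (31 at an unadjusted p below 0.05). Over all genes, 1336 lower and 1495 higher became 369 to 3889 and 669 to 2802 with 1 array left out, 3481 and 2459 with array weights, 727 and 975 with the replicate block, and 2101 lower at the threshold of 0.1. The replicate block left the count of members at 1. Without YAP Tg mouse 1, Orc6 reversed to 0.0204, and over the 6 such fits it lay between -0.655 and 0.0204. The cause of these shifts was not tested. Settings of 1 fewer array have fewer degrees of freedom. Under 3 alternatives the set's level was -1.03 to -0.906, -0.051 to -0.0227 and -0.925 to -0.859 in YAP Tg mice 1, 2 and 3. In control arrays it stayed between -0.05 and 0.06. The E2F share was 24.4% with the first 2 spellings alone, against 31.7%. These 2 are part of the 4, so the binomial interval does not measure that change.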

Other observations

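Exactly equal values on 2 or more arrays occurred for 4 of the 39 genes, among them Mcm5 (10.20 in control mice 1 and 2). They occurred for 29.5% of all genes and 11.2% of those above the median signal. No source used here says how such ties arose. Genes of the same complex could differ from the rest of it: among the origin recognition genes, Orc3 and Orc4, listed for comparison, had changes of -0.10 and -0.08 without YAP Tg mouse 2 (limma's adjusted p = 0.246 and 0.623), while Orc2 changed by -1.01 (0.00131). Gmnn, which encodes geminin, the inhibitor of Cdt1, averaged 6.32 ± 0.11 in YAP Tg and 6.51 ± 0.15 in control mice (SD, n = 3 each) and was not called with or without that mouse (limma's adjusted p = 0.258 and 0.148). These genes were named after their values were seen.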
